A study of Homo sapiens with 15 samples.

Results

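The 10 genes described here encode the cadherins, catenins and plaque proteins that hold neighbouring epithelial cells together: CDH1, CDH17, CTNNA1, CTNNB1, CTNND1, JUP, DSG2, DSC2, DSP and PKP2. They were chosen by name as components of adherens junctions and desmosomes. Each of the 10 symbols matched 1 of the 60557 Ensembl genes shared by all 15 count files, and all 10 passed the filter on low counts, among 13157 genes tested. The cells were Caco-2, a human colorectal carcinoma line whose confluent monolayer resembles enterocytes. Control monolayers were labelled as unexposed, and the others received a dishwasher rinse aid for 24 h at a dilution of 1:10000 or 1:40000. Each group had 5 libraries, and nothing in the labels tells whether these were grown separately. The p-values thus cover the spread among the libraries, which may be technical. The line is a single tumour-derived line, which limits all 3 groups alike as a model of normal gut epithelium.

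An adherens junction is built on classical cadherins such as E-cadherin, which bind their like on the next cell through their outer parts. Inside the cell, p120-catenin steadies the cadherin at the membrane, and beta-catenin or plakoglobin links it through alpha-catenin to actin. A desmosome uses desmogleins and desmocollins for the same purpose, and joins them through plakoglobin, plakophilins and desmoplakin to keratin filaments. Beta-catenin also carries Wnt signals into the nucleus, and zinc finger repressors such as SNAI1 act on the E-cadherin gene. In the gut both junctions lie just below the tight junctions that seal the epithelium.

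No member changed 2-fold in any comparison. The member with the highest fold change was DSG2, the desmoglein of simple epithelia, which was 1.62-fold higher at 1:10000 than in controls and 1.504-fold higher at 1:40000. CDH1, which encodes E-cadherin, fell to 0.746 of its control level at 1:10000 and stood at 1.00 of it at 1:40000. CDH17 encodes the intestinal LI-cadherin, which lacks the catenin-binding tail of classical cadherins. It differed from control at the other dilution, with 1.00 at 1:10000 and a rise to 1.25-fold at 1:40000. Between the dilutions both CDH1 and CDH17 were lower at 1:10000, at 0.745 and 0.798 of the 1:40000 level. At 1:10000 the related linkers JUP and CTNNB1 moved in opposite directions, plakoglobin to 1.19 and beta-catenin to 0.757 of control.

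The controls had 4333226 to 14230853 counts per library, the 1:10000 group 5489425 to 9555632 and the 1:40000 group 2551839 to 172092447, where replicate 1 was the deepest and replicate 2 the shallowest. Mitochondrial genes held 1.41 to 1.80% of counts in controls, 5.85 to 7.15% at 1:10000 and 1.96 to 3.30% at 1:40000, and their part in the results was not tested. The control files name the aligner RNA STAR in their headers and the rinse aid files HISAT2, and their gene lists differ. Against control, an effect of the exposure cannot be told apart from one of the read alignment or gene models, both of which the 2 dilutions share. Of 11 enterocyte markers 10 were tested, among them the villin gene VIL1 and the epithelial adhesion gene EPCAM, at 760 ± 34.8 and 884 ± 27.9 normalised CPM (counts scaled to library size, mean ± SD, n = 5) in controls. Of those 10, 7 were lower at 1:10000 than in controls, among them CDX2 (172 to 63.0 CPM), HNF4A (572 to 217) and VIL1 (760 to 475). The 2 higher were KRT8 (4078 to 5445 CPM) and KRT18 (2384 to 3977), which held most of the summed level. Among all genes 36.2% were lower and 34.8% higher in that comparison. At 1:40000 against control 3 of the 10 markers were lower and 0 higher, beside 26.0 and 26.1% of all genes. Summed over that list the level was 8852 to 10372 CPM in controls, 10422 to 12449 at 1:10000 and 8413 to 9679 at 1:40000. Fibroblast markers summed to 178 to 194, 89.3 to 109 and 139 to 163 CPM in the same order (5 of 10 tested, THY1 and POSTN at 0 in all libraries), leukocyte markers to 14.6 to 21.96, 9.56 to 12.9 and 17.5 to 24.4 CPM (2 of 10 tested, PTPRC, MS4A1 and FCGR3A at 0), and squamous markers to 13.4 to 15.4, 14.4 to 20.7 and 6.35 to 10.7 CPM (1 of 8 tested, KRT1, IVL and SPRR1A at 0). Whether these lists bear on the junction genes was not tested. In bulk RNA, fewer cells of a type and less RNA per cell cannot be told apart.

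Promoters are shown for the desmosomal members with an entry in the table used, which holds none for PKP2, and for JUP and CTNNB1, which moved in opposite directions at 1:10000. RefSeq on GRCh38.p14 gave 11 starts for 6 members (CTNNA1, CTNNB1, JUP, DSG2, DSC2 and DSP), and the window was the 250 bases before each start, read 5′ to 3′ on the gene's strand. Capitals mark CAGGTG, the E-box bound by SNAI and ZEB repressors, or its reverse complement CACCTG. The windows are chr18:31497927-31498176 on the plus strand for DSG2, chr18:31102422-31102671 on the minus strand for DSC2, chr6:7541421-7541670 on the plus strand for DSP, chr17:41785977-41786226 on the minus strand for JUP (the inner of its 2 starts) and chr3:41199255-41199504 on the plus strand for CTNNB1.
DSG2: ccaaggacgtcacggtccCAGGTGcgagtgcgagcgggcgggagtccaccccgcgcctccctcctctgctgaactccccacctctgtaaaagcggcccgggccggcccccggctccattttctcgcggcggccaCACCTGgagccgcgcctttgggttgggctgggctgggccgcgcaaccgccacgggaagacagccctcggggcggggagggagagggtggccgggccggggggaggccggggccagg
DSC2: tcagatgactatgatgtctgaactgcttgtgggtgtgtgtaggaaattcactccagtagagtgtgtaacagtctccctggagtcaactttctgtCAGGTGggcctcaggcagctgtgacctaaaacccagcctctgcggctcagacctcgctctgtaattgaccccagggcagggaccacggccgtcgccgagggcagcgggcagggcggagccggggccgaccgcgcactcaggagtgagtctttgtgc
DSP: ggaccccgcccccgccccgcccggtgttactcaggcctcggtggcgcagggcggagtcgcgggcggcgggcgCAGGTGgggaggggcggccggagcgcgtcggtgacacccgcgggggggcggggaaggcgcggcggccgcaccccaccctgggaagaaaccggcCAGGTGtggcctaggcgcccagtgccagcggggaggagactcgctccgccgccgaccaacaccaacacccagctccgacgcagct
JUP: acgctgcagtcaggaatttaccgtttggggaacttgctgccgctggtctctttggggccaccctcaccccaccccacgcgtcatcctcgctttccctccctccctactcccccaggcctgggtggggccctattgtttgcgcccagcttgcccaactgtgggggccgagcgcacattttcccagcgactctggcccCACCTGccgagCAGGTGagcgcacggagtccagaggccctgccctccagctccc
CTNNB1: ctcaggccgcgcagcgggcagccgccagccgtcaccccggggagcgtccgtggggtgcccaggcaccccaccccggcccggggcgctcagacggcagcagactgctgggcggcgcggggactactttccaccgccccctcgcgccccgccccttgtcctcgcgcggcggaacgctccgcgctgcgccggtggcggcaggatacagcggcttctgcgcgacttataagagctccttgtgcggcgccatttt
The E-box was found 2 times in the windows of DSG2, DSP and the inner start of JUP and 1 time in the outer window of DSC2. It was in none of the other windows of these 6 members, and 17.5% of all 35116 promoter windows of this length held it on either strand. For JUP and DSC2 the window printed is the one that held the E-box. The outer window of JUP and the inner window of DSC2 did not hold it and are not printed. None of the 11 windows held the AP-1 motif TGANTCA (6.57% of all windows), the TEAD motif CATTCC (11.9%), the GRHL motif AACCNGTT (1.49%), an ATF4 composite motif TGATGNAAT (0.889%) or TATAAA (10.7%), each searched on both strands. These are matches of letters and not binding sites, and their lack says nothing of a factor.

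In GENCODE 29 on GRCh38 all 10 members are protein-coding genes. Among the adherens junction genes, CDH1 (ENSG00000039068) lies on chromosome 16 from 68737225 to 68835548 and CDH17 (ENSG00000079112) on chromosome 8 from 94127171 to 94217303. CTNNA1 (ENSG00000044115) lies on chromosome 5 from 138610967 to 138935034, CTNNB1 (ENSG00000168036) on chromosome 3 from 41194741 to 41260096, and CTNND1 (ENSG00000198561) on chromosome 11 from 57753243 to 57819546. JUP (ENSG00000173801), shared by both junctions, lies on chromosome 17 from 41754604 to 41786931. The desmosomal cadherins DSG2 (ENSG00000046604) and DSC2 (ENSG00000134755) are close together on chromosome 18, from 31498043 to 31549008 and from 31058840 to 31102522. DSP (ENSG00000096696) lies on chromosome 6 from 7541575 to 7586717 and PKP2 (ENSG00000057294) on chromosome 12 from 32790745 to 32896840. The identifier version of every member was the same in all 15 files. Counts of CTNND1 are uncertain, because the readthrough gene TMX2-CTNND1 covers 99.4% of its span in RefSeq on GRCh38.p14 and the rule for shared reads is not given in the sources used here. Antisense genes share 5.62% of the exon bases of CDH1 and 2.76% of those of DSG2, and opposite-strand genes share 5.89% of those of CTNNA1, with no strand setting stated.

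Levels between genes were compared per kilobase of annotated exon. In the controls CDH1 was the most abundant member at 256 ± 9.54 CPM per kilobase (mean ± SD, n = 5), followed by CDH17 at 178 ± 14.3 and JUP at 143 ± 8.10. DSP at 82.4 ± 6.49, CTNNA1 at 75.4 ± 3.77 and PKP2 at 74.9 ± 5.48 formed a middle tier whose neighbours overlapped in range. CTNNB1 at 18.2 ± 1.22 and DSG2 at 17.0 ± 0.695 overlapped as well, and DSC2 at 3.78 ± 0.471 and CTNND1 at 2.90 ± 0.135 were lowest. The place of CTNND1 is uncertain, because the rule for reads shared with TMX2-CTNND1 is not given. The exon length sums all annotated isoforms, so genes with long rare isoforms read low on this scale. The raw counts behind these values ran from 89 for CTNND1 in the shallowest library to 303237 for CDH1 in the deepest, so counting error weighs most on CTNND1 and DSC2.

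**Figure D1:**
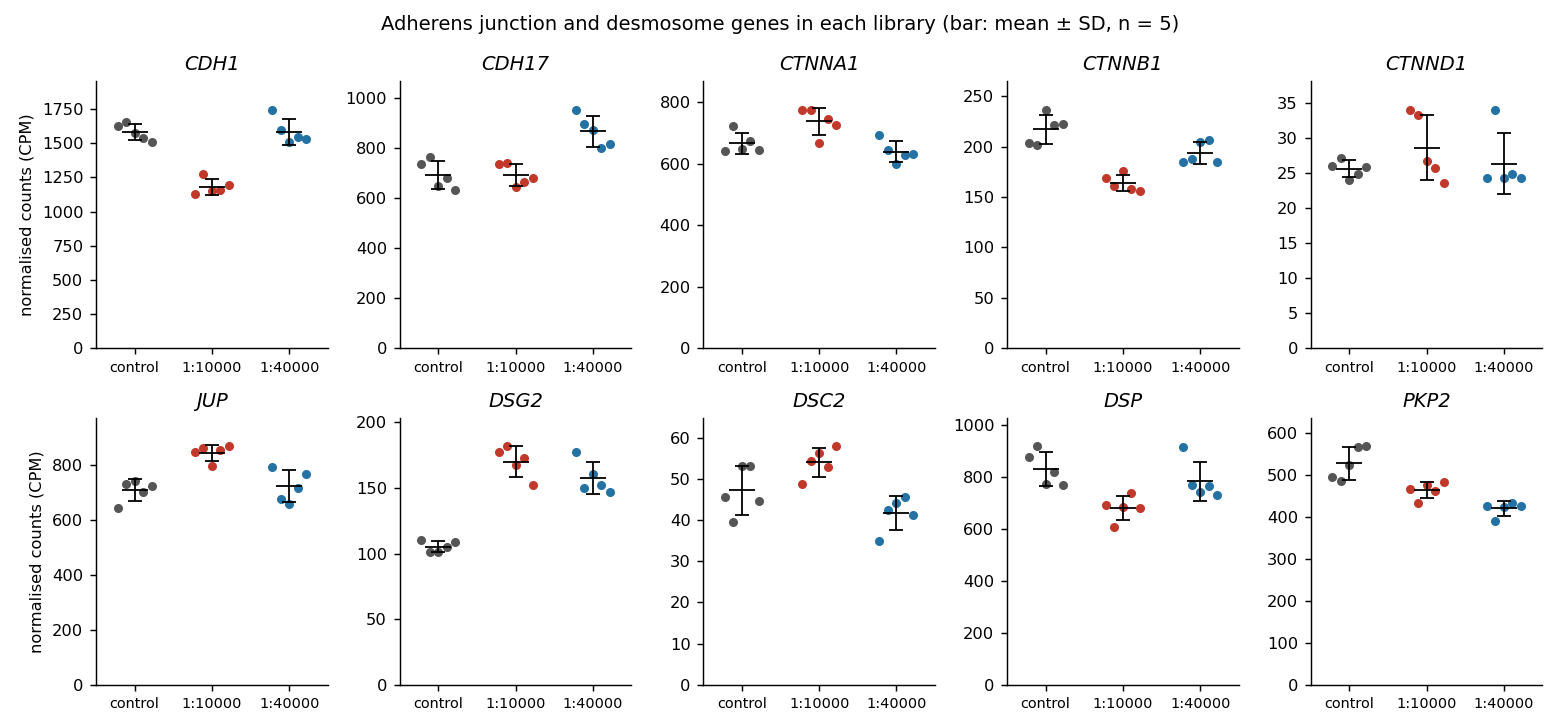
Normalised counts in CPM (y axes from 0) of the 10 members in each library of the control, 1:10000 and 1:40000 groups (x axes). Points run from replicate 1 at the left to replicate 5 at the right of each group, and bars give the mean ± SD over 5 libraries. All 5 libraries at 1:10000 lie below all controls for CDH1 and CTNNB1, and all 10 rinse aid libraries lie above all controls for DSG2.

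Of the adherens junction cadherins, CDH1 was lower at 1:10000 alone. Its level in control replicates 1 to 5 was 1629, 1653, 1578, 1542 and 1511 CPM. At 1:10000 it was 1129, 1273, 1152, 1158 and 1192 CPM, and at 1:40000 it was 1746, 1596, 1509, 1543 and 1530 CPM. Every library at 1:10000 lay below every library of the other groups, which overlapped each other. The log2 fold change was -0.42 ± 0.06 (± SE) at 1:10000 against control (edgeR adjusted p = 2.06e-07) and -0.43 ± 0.05 against 1:40000 (edgeR adjusted p = 4.41e-07). At 1:40000 against control it was 0.002 ± 0.05, with a 95% interval from -0.11 to 0.12 (edgeR adjusted p = 0.978).

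LI-cadherin kept its control level at the stronger dilution and was higher at the weaker one. CDH17 stood at 738, 764, 651, 680 and 634 CPM in the controls and at 737, 742, 644, 665 and 681 CPM at 1:10000, with groups that overlapped throughout. At 1:40000 it stood at 955, 899.8, 872, 803 and 817 CPM, above every library of the other 2 groups. Against control the log2 fold change was 0.33 ± 0.06 at 1:40000 (edgeR adjusted p = 0.000142) and 0.0005 ± 0.06 at 1:10000, with a 95% interval from -0.13 to 0.13 (edgeR adjusted p = 0.995). Between the dilutions it was -0.33 ± 0.06 (edgeR adjusted p = 0.00012).

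The catenins that bind the cadherin tail did not move together. CTNNB1, beta-catenin, read 204, 201, 237, 221 and 222 CPM in controls, 169, 161, 176, 158 and 156 CPM at 1:10000 and 185, 188, 204, 206 and 185 CPM at 1:40000. The libraries at 1:10000 lay below all others, and those at 1:40000 overlapped the lower controls. CTNNB1 fell by 0.40 on the log2 scale at 1:10000 against control (edgeR adjusted p = 1.6e-06) and was 0.24 ± 0.06 lower than at 1:40000 (log2 fold change -0.24, edgeR adjusted p = 0.00143). At 1:40000 against control it was -0.16 ± 0.06 (edgeR adjusted p = 0.0223), a call that ended under 8 of 17 other settings, among them leaving out 1 of control replicates 3 and 5 or 1 of 1:40000 replicates 1, 2 and 5 (edgeR adjusted p = 0.0507 to 0.0739; range over all settings 0.00942 to 0.387).

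JUP, plakoglobin, takes the place of beta-catenin at the cadherin tail and is the one catenin found in both junctions. It read 641, 730.5, 742, 699.7 and 723 CPM in controls and 845, 861, 794, 855 and 867 CPM at 1:10000. At 1:40000 it read 792, 676, 659, 717 and 768 CPM. All libraries at 1:10000 lay above those of the other groups, which overlapped. The log2 fold change of JUP was 0.26 ± 0.06 at 1:10000 against control (edgeR adjusted p = 0.000422), 0.03 ± 0.06 at 1:40000 against control (edgeR adjusted p = 0.677) and 0.22 ± 0.06 between the dilutions (edgeR adjusted p = 0.00216). With no filter on low counts the last of these was 0.155 and was not called (edgeR adjusted p = 0.0715; range over 17 settings 0.000117 to 0.0715).

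Alpha-catenin, the link to actin, followed plakoglobin with a smaller change. CTNNA1 ran from 642 to 721 CPM in controls (mean 666 ± 33.3), from 666 to 776 at 1:10000 (737 ± 44.9) and from 599 to 692 at 1:40000 (638 ± 33.9), and the groups overlapped in every comparison. Its log2 fold change at 1:10000 was 0.15 ± 0.06 against control (edgeR adjusted p = 0.0243) and 0.21 ± 0.06 against 1:40000 (edgeR adjusted p = 0.00312). The first of these calls ended without control replicate 1, 3 or 5 (edgeR adjusted p = 0.0642, 0.0554 and 0.0698) and with no filter on low counts (0.0564; range over 17 settings 0.00552 to 0.0698). The second ended with no filter on low counts (0.14, edgeR adjusted p = 0.122; range over 17 settings 0.000191 to 0.122). CTNND1, p120-catenin, had 24.0 to 27.1 CPM in controls, 23.6 to 33.9 at 1:10000 and 24.2 to 34.0 at 1:40000. No comparison of it passed, and its 95% interval at 1:10000 against control ran from -0.06 to 0.38 (log2, edgeR adjusted p = 0.192). Between the dilutions it passed only without 1:40000 replicate 2, the shallowest library, at a log2 fold change of 0.24 (edgeR adjusted p = 0.0441; range over 17 settings 0.0441 to 0.61).

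The desmosomal cadherins separated from each other. DSG2 had 110.4, 101, 101, 105 and 109 CPM in controls and 177, 182, 167, 173 and 152 CPM at 1:10000. At 1:40000 it had 177, 150.1, 161, 152 and 147 CPM. Both rinse aid groups lay wholly above the controls and overlapped each other. Its log2 fold change against control was 0.69 ± 0.06 at 1:10000 (edgeR adjusted p = 5.65e-10) and 0.59 ± 0.06 at 1:40000 (edgeR adjusted p = 2.81e-08). These 2 comparisons share the control libraries and the change of aligner. Between the dilutions, which share the aligner, the difference was 0.10 ± 0.06, with a 95% interval from -0.02 to 0.23 (edgeR adjusted p = 0.155), and it passed without 1:40000 replicate 1 (0.15, edgeR adjusted p = 0.0318) and with 1:40000 replicates 3, 4 and 5 only (0.16; range over 17 settings 0.0318 to 0.737).

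DSC2, the desmocollin that pairs with DSG2 in simple epithelia, differed between the dilutions instead. It had 45.5, 39.5, 53.0, 53.2 and 44.7 CPM in controls, 48.8, 54.3, 56.2, 52.9 and 57.9 CPM at 1:10000 and 34.9, 42.4, 44.2, 45.5 and 41.3 CPM at 1:40000. The dilutions did not overlap, and the controls overlapped both. Between the dilutions the log2 fold change was 0.39 ± 0.09 (edgeR adjusted p = 0.00073). Against control it was 0.20 ± 0.09 at 1:10000 and -0.19 ± 0.09 at 1:40000 (edgeR adjusted p = 0.0554 and 0.0819), and these passed under 6 and 2 of 17 other settings (ranges of adjusted p 0.0201 to 0.194 and 0.0207 to 0.424). Single libraries whose removal gave a call were control replicates 3 and 4 and 1:10000 replicate 1 for the first, and control replicate 2 for the second.

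Of the remaining plaque members, PKP2 was lower at both dilutions and DSP at 1:10000. PKP2, plakophilin 2, had 495, 486, 523, 566 and 568 CPM in controls, 467, 434, 475, 461 and 484 CPM at 1:10000 and 426, 390.3, 424, 434 and 426 CPM at 1:40000. Both rinse aid groups lay below all controls. Its log2 fold change against control was -0.18 ± 0.06 at 1:10000 and -0.33 ± 0.06 at 1:40000 (edgeR adjusted p = 0.0051 and 3.08e-05). Between the dilutions it was 0.14 ± 0.06 (edgeR adjusted p = 0.0343), a call that ended under 6 of 17 settings, including without 1:10000 replicate 3 or 5 or 1:40000 replicate 2 (edgeR adjusted p = 0.0642, 0.0796 and 0.0637; range over all settings 0.00872 to 0.475).

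Desmoplakin, the linker to keratin, was lowest at the stronger dilution. DSP ran from 771 to 918 CPM in controls (mean 832 ± 65.5), from 607 to 739 at 1:10000 (681 ± 47.2) and from 731 to 916 at 1:40000 (784 ± 75.3), where replicate 1 was highest and the others ran from 731 to 768 CPM. It fell by 0.29 on the log2 scale at 1:10000 against control, with groups that did not overlap (edgeR adjusted p = 0.000568). Against control at 1:40000 it stood at -0.08 ± 0.07 (edgeR adjusted p = 0.314). The difference between the dilutions, -0.21 ± 0.07 (edgeR adjusted p = 0.0127), lost its call without 1:10000 replicate 2 or 1:40000 replicate 1 (-0.15 and -0.14, edgeR adjusted p = 0.0692 and 0.0548) and with 1:40000 replicates 3, 4 and 5 only (-0.12, edgeR adjusted p = 0.147; range over 17 settings 0.00186 to 0.147).

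**Figure D2:**
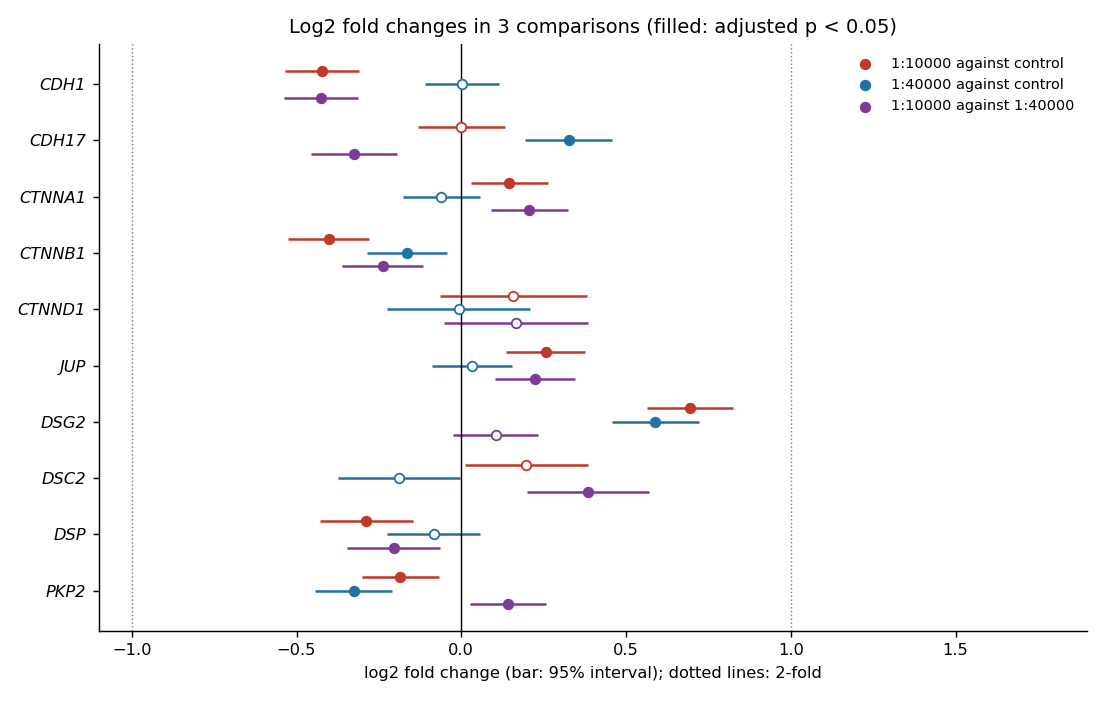
Log2 fold changes (x axis) with 95% intervals of the 10 members (y axis) at 1:10000 against control, at 1:40000 against control and at 1:10000 against 1:40000. Filled points have an edgeR adjusted p under 0.05, and no point reaches the dotted lines at 2-fold.

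Counted over the list, 3 members were higher and 4 lower at 1:10000 against control, 7 called in all. Of all 13157 genes tested, 71.0% were called there, 34.8% higher and 36.2% lower, so the share of members called was near the background. At 1:40000 against control 2 members were higher and 2 lower, 4 called in all against 52.1% of all genes (26.1% higher and 26.0% lower). Between the dilutions 4 were higher and 4 lower, 8 called against 57.3% of all genes (28.3% higher and 29.0% lower). Groups did not overlap for 6, 3 and 5 members in the same order, against 57.8, 36.3 and 40.3% of all genes. None of the called members reached a 2-fold change, against 23.3, 10.3 and 9.03% of all genes that were called and changed at least 2-fold. The median log2 fold change of the members was 0.07, -0.03 and 0.12, beside -0.02, -0.002 and -0.007 for all genes. The median of absolute values was 0.23, 0.12 and 0.22 for the members and 0.50, 0.28 and 0.34 for all genes.

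Ratios of partner genes within a library do not depend on how libraries are scaled to each other, and 6 pairs were compared in 3 comparisons. They can still shift with the aligner and gene models, so against control exposure cannot be told apart from these for any ratio. An exact two-sided permutation test over libraries was used, whose smallest possible p with 5 against 5 is 0.00794, and p-values were adjusted over the 18 tests. Differences between groups of a ratio, and not the ratio itself, are read here, since gene length is not taken out. JUP counts were 3.13 to 3.63 times the CTNNB1 counts in controls, 4.52 to 5.55 times at 1:10000 and 3.22 to 4.29 times at 1:40000. The libraries at 1:10000 stood above both other groups, 1.58-fold against control and 1.38-fold against 1:40000 (exact permutation, adjusted p = 0.0143 for each). At 1:40000 against control the ratio was 1.14-fold higher with overlapping groups (exact permutation, adjusted p = 0.0952), and it passed without control replicate 2 (log2 difference 0.23).

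Alpha-catenin to beta-catenin showed the same order, but both ratios divide by CTNNB1, so they are not independent. CTNNA1 to CTNNB1 was 3.08 ± 0.317 in controls (mean ± SD, n = 5), 4.50 ± 0.41 at 1:10000 and 3.31 ± 0.329 at 1:40000. The ratio at 1:10000 was 1.46-fold that of controls and 1.36-fold that at 1:40000 (exact permutation, adjusted p = 0.0143 for each), and 1:40000 against control gave 1.08-fold (exact permutation, adjusted p = 0.313). CTNND1 to CDH1, limited by the uncertain counts of CTNND1, was 1.49-fold higher at 1:10000 than in controls (exact permutation, adjusted p = 0.0143), beside a lower CDH1 and a CTNND1 that was not called. Against 1:40000 it was 1.46-fold higher (exact permutation, adjusted p = 0.026), a call that ended when any 1 of 6 libraries was left out, namely replicates 2, 3 and 4 at 1:10000 and 1, 4 and 5 at 1:40000 (log2 difference 0.48 to 0.57, exact permutation, adjusted p = 0.052 for each; range over 12 settings 0.026 to 0.0865).

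CDH17 to CDH1 rose in both rinse aid groups, beside a lower CDH1 at 1:10000 and a higher CDH17 at 1:40000. It was 0.413 to 0.462 in controls, 0.559 to 0.653 at 1:10000 and 0.520 to 0.578 at 1:40000. The folds against control were 1.34 and 1.25 (exact permutation, adjusted p = 0.0143 for each), and the dilutions overlapped, with a 1.07-fold difference (exact permutation, adjusted p = 0.0833) that passed without 1:40000 replicate 3 (log2 difference 0.12). DSC2 to DSG2 was lower in both rinse aid groups, at 0.276 to 0.381 and 0.197 to 0.299 against 0.391 to 0.524 in controls, or 0.712 and 0.592 of the control ratio (exact permutation, adjusted p = 0.0143 for each). PKP2 to DSP separated the dilutions, 1.27-fold higher at 1:10000 than at 1:40000 (exact permutation, adjusted p = 0.0143). Against control it was 1.08-fold at 1:10000 and 0.847 at 1:40000, with overlapping groups (exact permutation, adjusted p = 0.353 and 0.0952).

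**Figure D3:**
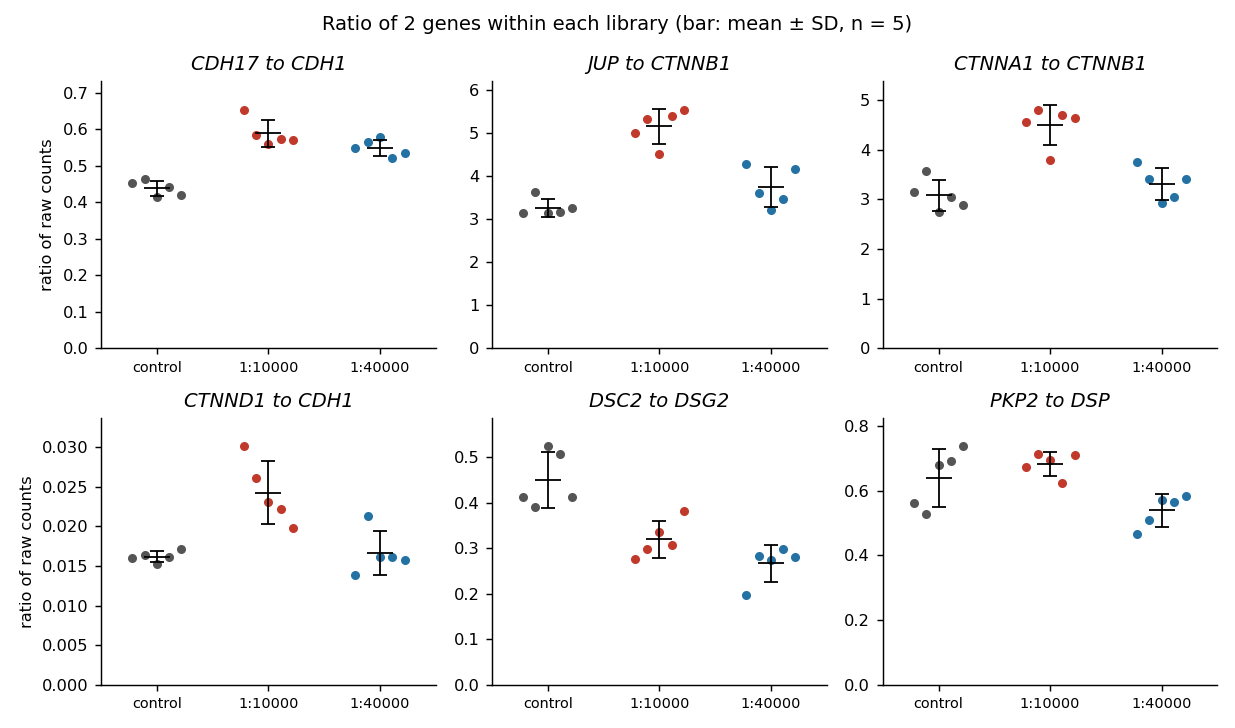
Ratio of raw counts of 2 genes within a library (y axes from 0) for 6 pairs of members in the control, 1:10000 and 1:40000 groups (x axes). Points are libraries, replicate 1 to 5 from left to right, and bars give the mean ± SD over 5. For JUP to CTNNB1 the 1:10000 libraries lie from 4.52 to 5.55 and all others at 4.29 or lower.

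Other adherens junction genes also moved both ways. Of 22 listed, 17 were tested, with 5 higher and 8 lower at 1:10000 against control (median log2 fold change -0.19), 3 and 5 at 1:40000 (-0.005) and 6 and 7 between the dilutions (0.06). Among all genes 71.0, 52.1 and 57.3% were called in the same order. NECTIN1, an immunoglobulin-like adhesion receptor of adherens junctions, fell from 107 ± 5.36 CPM in controls to 29.3 ± 3.84 at 1:10000 and stood at 106 ± 5.23 at 1:40000 (log2 fold change -1.87 ± 0.08 against control and -1.85 ± 0.08 against 1:40000, edgeR adjusted p = 2.17e-16 and 6.93e-15). NECTIN3, its binding partner, fell by 0.67 at 1:10000 against control (edgeR adjusted p = 6.58e-09). CTNNAL1, a relative of alpha-catenin, rose from 156 ± 19.1 to 360.1 ± 24.8 CPM at 1:10000 against 187 ± 8.39 at 1:40000 (log2 fold change 1.20 ± 0.07 and 0.95 ± 0.07 over the other groups, edgeR adjusted p = 1.45e-13 and 5.24e-11). AJUBA, a LIM protein that binds alpha-catenin, rose by 0.76 ± 0.07 at 1:10000 and 0.40 ± 0.07 at 1:40000 against control (edgeR adjusted p = 1.18e-09 and 4.91e-05).

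VCL, vinculin, which joins alpha-catenin to actin under tension, was 0.51 ± 0.06 higher at 1:10000 than at 1:40000 (edgeR adjusted p = 2.51e-08), and PKP4, a p120-related catenin, was lower (-0.41 ± 0.06, edgeR adjusted p = 1.57e-06). CDH3, P-cadherin, repeated the order of CDH17, with 185 ± 5.77, 187 ± 10.9 and 238 ± 18.3 CPM in controls, at 1:10000 and at 1:40000 (0.38 ± 0.06 at 1:40000 against control, edgeR adjusted p = 9.83e-06). LMO7 and LIMD1, LIM-domain proteins of the junction, were lower at 1:40000 than in controls (-0.39 ± 0.08 and -0.29 ± 0.07, edgeR adjusted p = 0.000164 and 0.000932). At 1:10000 against control LIMD1 was lower too (-0.35 ± 0.07, edgeR adjusted p = 0.000111), and LMO7 was not called (edgeR adjusted p = 0.226). Between the dilutions LIMD1 was not called (edgeR adjusted p = 0.53). CDH2, the N-cadherin gene, was not tested, with 0 to 4 counts in each control and 1:10000 library and 0 to 26 at 1:40000, where the 26 came from the deepest library.

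Most other desmosome genes belong to stratified epithelia and were near 0. Of 11 listed, 3 were tested (PKP3, PPL and PERP), and DSG3 had no count in any library. PPL, periplakin, rose by 0.54 ± 0.07 and PERP, a desmosomal membrane protein, by 0.46 ± 0.06 at 1:10000 against control (edgeR adjusted p = 1.19e-07 and 3.04e-07). PERP stood at 586 ± 25.7, 808 ± 68.6 and 583 ± 39.7 CPM in controls, at 1:10000 and at 1:40000. PPL was the only one of the 3 called at 1:40000 against control, higher by 0.21 with overlapping groups (edgeR adjusted p = 0.00995). PKP3, plakophilin 3, was lower at 1:10000 than at 1:40000 (-0.23 ± 0.07, edgeR adjusted p = 0.0118), a call that ended without 1:40000 replicate 5, at a log2 fold change of -0.14.

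Of the 7 brush border cadherins and their partners, 5 were tested, with 0 higher and 4 lower at 1:10000 against control and 0 and 2 at 1:40000. Among all genes 36.2 and 26.0% were lower in these comparisons. ANKS4B, a scaffold of the links between microvilli, fell from 29.7 ± 5.82 to 8.69 ± 1.54 CPM at 1:10000 and stood at 21.2 ± 2.24 at 1:40000 (-1.76 ± 0.14 and -1.24 ± 0.14 for 1:10000 against control and against 1:40000, edgeR adjusted p = 2.4e-11 and 3.48e-08). USH1C, another scaffold of those links, was lower at 1:10000 than at 1:40000 (-0.38 ± 0.08, edgeR adjusted p = 0.000222). CDHR5, a protocadherin of the microvillus tip, stood at 85.8 ± 10.3 CPM in the controls but at 0 to 0.31 and 0.148 to 5.23 CPM in the files made with the other aligner, and exposure cannot be told apart from aligner there.

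A list of cadherin repressors, epithelial transcription factors and cadherin proteases had 14 genes, of which 10 were tested. The repressor genes SNAI2, ZEB1, ZEB2 and TWIST1 were not tested, so the counts do not describe repressors as a class. At 1:10000 against control 8 of the 10 were higher and 0 lower (median 0.45), and 8 and 0 against 1:40000 (0.52). Among all genes 34.8 and 28.3% were higher in these comparisons, and 26.1% at 1:40000 against control. The list genes higher at 1:10000 against control include ADAM10 and ADAM17, proteases that cut proteins at the cell surface, and CBLL1, a ubiquitin ligase of E-cadherin. These act on the protein and not on its gene. ELF3 and GRHL2, transcription factors of epithelial identity, rose from 43.4 ± 3.62 to 110 ± 13.1 CPM and from 46.7 ± 1.67 to 96.1 ± 9.46 CPM (log2 fold change 1.325 ± 0.10 and 1.04 ± 0.08, edgeR adjusted p = 2.02e-11 and 4.35e-11). Both were also higher than at 1:40000, by 1.05 ± 0.10 and 0.89 ± 0.08 (edgeR adjusted p = 2.4e-09 and 1.67e-09). SNAI1, a repressor of CDH1, stood at 8.30 ± 0.502 CPM in controls, 25.7 ± 7.17 at 1:10000 and 13.7 ± 4.11 at 1:40000. It rose by 1.63 at 1:10000 (edgeR adjusted p = 2.43e-06) and by 0.73 ± 0.22 at 1:40000 against control (edgeR adjusted p = 0.00886). The second call ended with 1:40000 replicates 3, 4 and 5 only, at a log2 fold change of 0.38, and the count for the list at 1:40000 against control, 4 higher and 1 lower, became 0 and 1. That count was 2 and 1 without control replicate 2 and 1 and 1 without 1:40000 replicate 1. KLF4, a Krueppel-like factor of differentiated epithelium, was the one lower there (-0.68 ± 0.15, edgeR adjusted p = 0.000479).

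Beta-catenin that is not held at junctions is normally marked for breakdown by a complex built on APC and AXIN1. Whether that breakdown is intact in this tumour line was not tested. All 10 genes of a list of that complex and of inhibitors that bind beta-catenin were tested, with 5 higher and 4 lower at 1:10000 against control (median 0.06), 5 and 3 at 1:40000 (0.12) and 3 and 4 between the dilutions (-0.03). The shares of all genes called were 71.0, 52.1 and 57.3% in the same order. The kinase gene CSNK1A1 and the ubiquitin ligase subunit gene FBXW11 rose by 0.86 ± 0.06 and 0.84 ± 0.06 at 1:10000 and by 0.35 ± 0.06 and 0.37 ± 0.06 at 1:40000 against control (edgeR adjusted p = 3.33e-12, 4.48e-12, 2.64e-05 and 1.26e-05). AMER1, which brings the complex to the membrane, fell by 1.53 at 1:10000 and APC by 0.49 at 1:40000 against control (edgeR adjusted p = 8.13e-12 and 4.3e-05). Both genes lay below all controls at both dilutions. AMER1 stood at 37.8 ± 2.32, 13.1 ± 1.70 and 26.7 ± 3.79 CPM in controls, at 1:10000 and at 1:40000. In the same order APC stood at 41.9 ± 4.74, 28.6 ± 3.10 and 30.0 ± 1.18 CPM. CTNNBIP1, an inhibitor that binds beta-catenin, was lower at 1:10000 than at 1:40000 (-0.56 ± 0.10, edgeR adjusted p = 3.95e-05). CHD8, which also binds beta-catenin, was lower at both dilutions (-0.70 ± 0.07 and -0.38 ± 0.07, edgeR adjusted p = 1.78e-09 and 4.36e-05).

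Most listed beta-catenin target genes were lower at 1:10000, with 0 of 12 higher and 10 lower against control (median -1.15) and 0 higher and 9 lower against 1:40000 (-0.67). At 1:40000 against control 3 were higher and 7 lower (-0.55). The shares of all genes that were lower were 36.2, 29.0 and 26.0% in the same order. EPHB2, a receptor that sorts crypt cells, fell from 77.5 ± 8.22 to 27.0 ± 2.54 CPM at 1:10000 and stood at 72.9 ± 5.73 at 1:40000 (-1.51 ± 0.09 against control, edgeR adjusted p = 1.06e-13). ZNRF3, which removes Wnt receptors, stood at 70.3 ± 4.42, 29.9 ± 4.74 and 46.5 ± 5.99 CPM in controls, at 1:10000 and at 1:40000 (-1.23 ± 0.10 and -0.58 ± 0.09 against control, edgeR adjusted p = 5.5e-11 and 1.5e-05). LGR5, a stem cell receptor, fell by 1.70 at 1:40000 against control (edgeR adjusted p = 1.41e-05), and NOTUM, a secreted Wnt inhibitor, rose there from 2.28 ± 0.732 to 4.21 ± 0.632 CPM (edgeR adjusted p = 0.000295). EPHB3, another crypt receptor, was 1.60 ± 0.18 lower at 1:10000 than at 1:40000 on the log2 scale (log2 fold change -1.60, edgeR adjusted p = 5.6e-08).

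**Figure D4:**
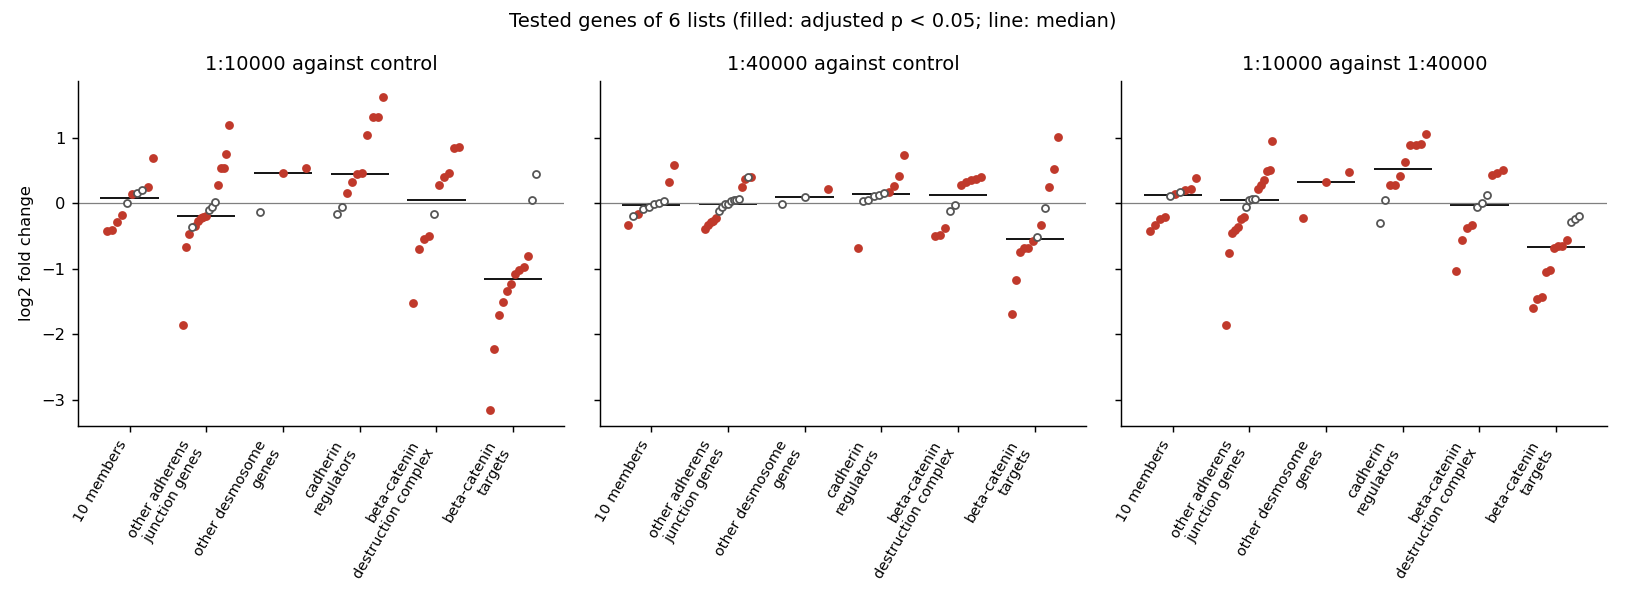
Log2 fold changes (y axes) of the tested genes of 6 lists (x axes) in the 3 comparisons. Filled points have an edgeR adjusted p under 0.05 and lines give list medians. The members lie from -0.43 to 0.69 over the 3 comparisons, while the beta-catenin targets have medians of -1.15, -0.55 and -0.67.

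The genes whose levels most resembled CDH1 and CDH17 were sought over the 10 rinse aid libraries, which share the aligner. For CDH1 these were C6orf89, PCK2 and SFXN3 (Pearson r of log2 CPM 0.99 for each), and for CDH17 they were GLUL, CRYL1 and NMNAT3 (0.99, 0.98 and 0.97). The 10 points fall into 2 dilution groups, and the coefficients describe mainly the difference between them.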

How the data were processed

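PolyA RNA of the 15 Caco-2 samples was sequenced, and the authors deposited 1 table of raw read counts per gene for each sample. Per the file headers the control counts were aligned with RNA STAR and list 60649 genes, and the rinse aid counts were aligned with HISAT2 and list 61544. Tools listed in the submitters' processing notes, without role or order, are featureCounts, cutadapt, DESeq2 1.32.0 and STAR 2.7.9a, and the build is GRCh38 (hg38). The strand setting is not given in the sources used here. The 60557 shared genes were joined by Ensembl identifier, and they held at least 99.973% of counts in every library.

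Counts were filtered with filterByExpr, scaled by TMM and tested with edgeR 4.0.16 in R 4.3.3 (robust quasi-likelihood test, 3 group means, 15 libraries). Benjamini-Hochberg adjustment ran over the 13157 genes tested, with calls at an adjusted p under 0.05, and the code was tested on simulated data. Within-library ratios used raw counts. The members and gene lists were chosen with earlier results of these data known. All members were named, and from each related list up to 2 called genes per direction with the smallest adjusted p and groups that did not overlap. VIL1, EPCAM, CDH2, DSG3, SNAI2, ZEB1, ZEB2, TWIST1, ADAM10, ADAM17, CBLL1, PPL at 1:40000 and SNAI1 at 1:10000 were named outside that rule, after their values were seen. Alternatives were DESeq2 1.42.0, upper-quartile scaling, TMM on genes with the same identifier version in all files, no low-count filter, only the groups compared, a replicate block, and leaving out libraries. No 2 libraries of a group agreed within sampling noise (lowest chi-square per degree of freedom 1.73).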

Additional observations from a re-analysis of the deposited data

Results flagged for a closer look

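Of 48 groups of 5 libraries examined (10 members and 6 ratios in 3 groups), 8 held a library whose gap to its nearest neighbour was over 0.71 of the range of the group, and chance gives about 1 in 20. Those of members at 1:40000 were in its deepest library, replicate 1, and its shallowest, replicate 2. CTNND1 (p120-catenin) was high in replicate 2 at 34.0 CPM and PKP2 (plakophilin 2) was low there at 390.3 CPM. DSP (desmoplakin) was high in replicate 1 at 916 CPM. JUP (plakoglobin) was low in 1:10000 replicate 3 at 794 CPM, still above every control. Among the ratios, CDH17 to CDH1 was high in 1:10000 replicate 1 at 0.653 and CTNNA1 to CTNNB1 was low in 1:10000 replicate 3 at 3.79. JUP to CTNNB1 was high in control replicate 2 at 3.63, and DSC2 to DSG2 was low in 1:40000 replicate 1 at 0.197.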

How the results depend on the processing

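Over 17 alternatives per comparison, 6 to 8 members were called at 1:10000 against control, 3 to 5 at 1:40000 against control and 5 to 8 between the dilutions. The lowest of these, 5 (1 higher and 4 lower), came with no filter on low counts, where CTNNA1, JUP and PKP2 lost their calls. Of the single member values, 476 kept their side of the threshold, 23 lost a call and 11 gained one, and no called value changed sign. With the replicate block 8, 5 and 8 members were called, DSC2 being added against control at both dilutions (log2 fold change 0.20 and -0.19, edgeR adjusted p = 0.0203 and 0.0357). The labels do not pair the numbers: correlations of same-numbered deviations ran from -0.05 to 0.28, and 1, 3 and 3 of 5 samples correlated best with their own number. This does not test a split of replicates 1 and 2 from 3, 4 and 5. In controls, at 1:10000 and at 1:40000, COL3A1 reached 10.2, 11.3 and 9.93 CPM in replicates 1 and 2. Its lowest level in the others was 20.7, 21.97 and 22.4 CPM. Chi-square per degree of freedom was 1.73 to 2.15 among controls 3, 4 and 5 and 4.28 to 8.34 in other control pairs. The ranges also parted at 1:10000 and overlapped at 1:40000. The tests treat the 5 libraries as alike, and this split was not tested. For ratios, the replicate block (exact sign-flip test) cannot go below p = 0.0625 (adjusted 0.0865 in these data), so calls end by its construction. Its log2 differences, the same as without pairing, were 0.426 and 0.326 for CDH17 to CDH1 against control, 0.66 and 0.466 for JUP to CTNNB1, 0.549 and 0.444 for CTNNA1 to CTNNB1, 0.571 and 0.542 for CTNND1 to CDH1 (each at 1:10000 against control and between the dilutions), -0.49 and -0.756 for DSC2 to DSG2 against control, and 0.346 for PKP2 to DSP between the dilutions. With 1:40000 replicates 3, 4 and 5 only, the exact permutation test cannot go below p = 0.0357 (adjusted 0.0584). The values were then 0.314 for CDH17 to CDH1 and -0.647 for DSC2 to DSG2 at 1:40000 against control, and between the dilutions 0.517 for JUP to CTNNB1, 0.523 for CTNNA1 to CTNNB1, 0.584 for CTNND1 to CDH1 and 0.25 for PKP2 to DSP. Leaving out 1 library gave 0.461 to 0.635 for CTNND1 to CDH1, 0.161 to 0.318 for DSC2 to DSG2 and 0.0608 to 0.118 for CDH17 to CDH1 between the dilutions, and 0.143 to 0.247 for JUP to CTNNB1 at 1:40000 against control. DSC2 to DSG2 passed without 1:10000 replicate 1, CDH17 to CDH1 without 1:40000 replicate 3 and JUP to CTNNB1 without control replicate 2 (exact permutation, adjusted p = 0.0476 for each). Where no construction is named, the cause was not tested.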
